A study of Mus musculus with 6 samples.

Results

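The genes described here encode sensors of nucleic acid in the cytosol, together with Mavs, the adaptor through which the RNA helicases signal. The set holds 8 genes, named by symbol and not by any measured value: Ddx58 (RIG-I), Ifih1 (MDA5), Dhx58 (LGP2), Zbp1, Eif2ak2 (PKR), Ifi204, Ifi205 and Mavs. Probe sets were taken where the platform annotation gave them 1 symbol, and the probe set with the highest mean over the 6 arrays stood for the gene. By that rule 7 of the 8 genes were measured, through 15 probe sets of 45101, and all 7 were among the 13587 of 18194 genes that reached an array's median on at least 1 array. Ifi205 had no probe set of its own: its 2 probe sets also name Ifi211, and 1 of them Ifi204 and Mndal too, so no value is given for it.

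Expression was measured on Affymetrix arrays in peritoneal macrophages drawn into the abdominal cavity with thioglycollate. The 6 conditions, with 1 array each, were LysM-Cre+;Akirin2fl/fl macrophages (called Akirin2 KO) without stimulation and after 2 or 4 h of lipopolysaccharide (LPS) at 100 ng/ml, and wild-type macrophages at the same 3 times. All mice were of the C57BL/6 x 129Sv background, and the Cre is driven by the lysozyme locus, which is active in myeloid cells. The labels give no age, no number of animals per sample and no Cre or floxed allele in the wild-type mice. Whether 1 pool of cells supplied all 3 times of a genotype is not stated either. A difference between 2 arrays therefore has no replicate check and is given by its size, with 2-fold (a log2 difference of 1) as the rule.

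The RNA helicases RIG-I and MDA5 bind viral double-stranded RNA and pass the signal to MAVS on the mitochondrial surface, which leads to interferon and cytokine transcription, while LGP2 modulates both. ZBP1 binds nucleic acid in the Z form and can start necroptosis through RIPK3, PKR halts translation by phosphorylating the initiation factor eIF2, and the mouse PYHIN protein p204, the product of Ifi204, binds DNA and acts upstream of STING. Most of these sensor genes are interferon-stimulated: LPS reaches them in macrophages through TLR4, the adaptor TRIF and interferon beta, whose signal ends on the interferon-stimulated response element (ISRE).

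Promoter sequences are shown because 6 of the 7 measured genes were higher after 4 h of LPS and Mavs was the gene with another pattern. The sequences are RefSeq windows on GRCm38.p6, from 250 bases before to 50 bases after an annotated start. They were matched by symbol for 5 of the 8 genes. The ISRE core searched was GAAA, any 2 bases and GAAA. The interferon gamma activated site (GAS) was TTC, any 3 bases and GAA, and the kappaB site was GGG, any 3 bases and TTCC. Each was searched on both strands, and no matches overlapped in the windows shown. Windows of the 4 measured genes with an entry follow, with matches in capitals.
Ddx58 (chr4:40239776-40240075, minus strand): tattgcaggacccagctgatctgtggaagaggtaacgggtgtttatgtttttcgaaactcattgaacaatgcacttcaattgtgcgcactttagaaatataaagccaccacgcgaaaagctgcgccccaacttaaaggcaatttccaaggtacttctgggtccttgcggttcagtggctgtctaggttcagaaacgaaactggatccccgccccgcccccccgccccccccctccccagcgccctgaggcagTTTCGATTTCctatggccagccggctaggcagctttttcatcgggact
Ifih1 (chr2:62646206-62646505, minus strand): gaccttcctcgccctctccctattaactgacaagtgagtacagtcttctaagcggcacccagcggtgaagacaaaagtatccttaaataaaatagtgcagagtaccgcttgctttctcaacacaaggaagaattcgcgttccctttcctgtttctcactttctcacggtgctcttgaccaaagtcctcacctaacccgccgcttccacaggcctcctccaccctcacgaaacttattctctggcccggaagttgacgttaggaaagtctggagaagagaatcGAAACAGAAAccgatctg
Eif2ak2 (chr17:78882523-78882822, minus strand): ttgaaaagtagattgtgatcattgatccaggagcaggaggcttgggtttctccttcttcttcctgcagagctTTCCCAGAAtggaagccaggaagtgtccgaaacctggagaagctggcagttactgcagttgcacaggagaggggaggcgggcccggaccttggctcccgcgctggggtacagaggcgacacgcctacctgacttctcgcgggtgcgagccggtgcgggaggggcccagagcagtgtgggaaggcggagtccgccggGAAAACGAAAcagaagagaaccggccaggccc
Mavs (chr2:131233813-131234112, plus strand): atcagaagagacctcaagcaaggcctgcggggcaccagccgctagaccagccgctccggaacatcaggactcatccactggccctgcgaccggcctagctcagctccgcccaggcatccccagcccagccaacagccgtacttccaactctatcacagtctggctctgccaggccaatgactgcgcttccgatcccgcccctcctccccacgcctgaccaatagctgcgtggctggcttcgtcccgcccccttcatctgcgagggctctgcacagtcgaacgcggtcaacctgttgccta
The ISRE core lay in the windows of Ddx58, Ifih1, Eif2ak2 and Ifi205, or 4 of 5, against 3.43% of 32817 promoter windows of the same length. It began 3 bases after the start in Ddx58, on the opposite strand (TTTCGATTTC), 33 bases after it in Ifih1 (GAAACAGAAA) and 19 bases after it in Eif2ak2 (GAAAACGAAA). Eif2ak2 also held a GAS pattern (TTCCCAGAA), which 8.29% of windows hold. The Mavs window held none of the 3 patterns, and no window of the 5 genes held the kappaB letters, which 5.56% of windows hold. Ifi205 has no measured value, and Dhx58, Zbp1 and Ifi204 had no window, so the windows do not cover all genes that rose.

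**Figure D1:**
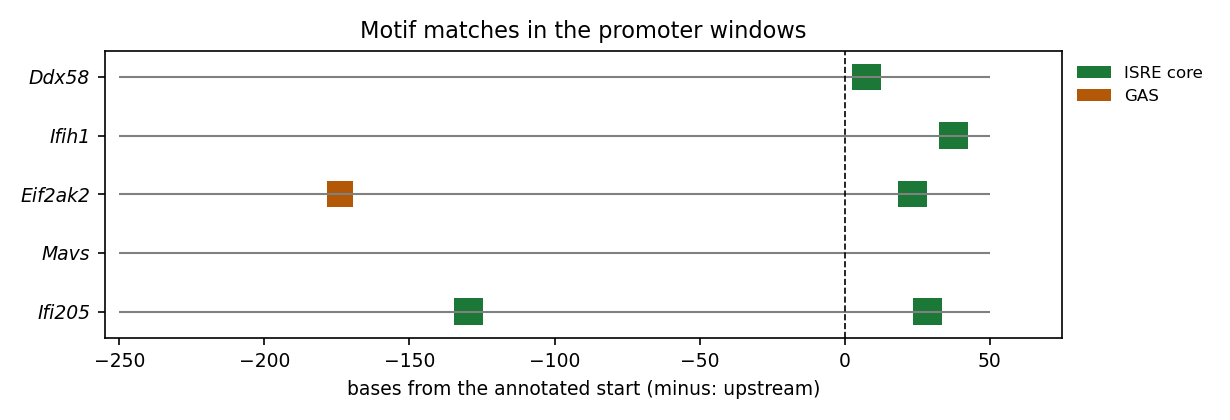
Positions of the ISRE core and GAS patterns in the RefSeq promoter windows of 5 genes, in bases from the annotated start (dashed line). An ISRE core stands downstream of the start in Ddx58, Ifih1, Eif2ak2 and Ifi205, and the Mavs window is empty.

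The arrays were checked first. Akirin2 itself read 5.18, 5.54 and 4.91 on the log2 scale in Akirin2 KO at 0, 2 and 4 h, against 7.43, 7.47 and 7.33 in wild-type, so the labels of all 6 arrays fit the targeted gene. Of 8 macrophage markers, 7 were above the array medians (3.18 to 3.23), while the Itgam probe set read only 3.06 to 3.47. The summed log2 level of those 8 markers was 66.4 to 67.9 in KO and 68.3 to 69.9 in wild-type, and 1 of the 8, Fcgr1, was called lower in KO. Markers of mesothelial cells and fibroblasts summed to 37.4 to 39.5 in KO and 41.1 to 42.5 in wild-type over 8 measured genes, of which Col1a2 was called lower. Of 7 neutrophil markers 3 were measured, with a summed level of 17.3 to 18.5 in KO and 17.3 to 18.6 in wild-type. S100a8 read 7.74 to 8.80 in KO and 7.61 to 9.06 in wild-type and rose at 4 h by 1.26 (limma, adjusted p = 0.00116), S100a9 read 6.34 to 6.70 in KO and 6.09 to 6.65 in wild-type, and Mpo and Ngp stayed below the expression filter, as did the plasmacytoid dendritic cell gene Siglech. The part of the S100a8 increase in the LPS results below was not tested. The difference between the 3' and 5' Actb probe sets, a sign of RNA quality, was 4.64, 4.50 and 4.36 in KO at 0, 2 and 4 h, against 4.22, 4.16 and 4.09 in wild-type. For Gapdh the same difference was closer between genotypes, at 4.34, 4.52 and 4.44 in KO, against 4.33, 4.33 and 4.42 in wild-type. The part of these marker and 3' to 5' differences in the genotype results below was not tested. In such bulk samples, fewer cells of a type and less RNA per cell cannot be told apart.

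The first comparison asks how LPS changed the sensors. In limma, fitted to all 6 arrays with LPS time and genotype as terms and adjusted over 13587 genes by the Benjamini-Hochberg method, 2 of the 7 measured genes rose at 2 h, where 3.96% of all genes did, and 6 of 7 rose at 4 h, where 7.76% of all genes did. None fell at either time (2.89% of all genes at 2 h and 7.61% at 4 h). The median difference of the 7 genes was -0.02 at 2 h and 1.23 at 4 h, beside -0.04 and -0.03 over all genes. In this fit any difference in response between the genotypes counts as error, and the p-values carry no spread between animals.

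**Figure D2:**
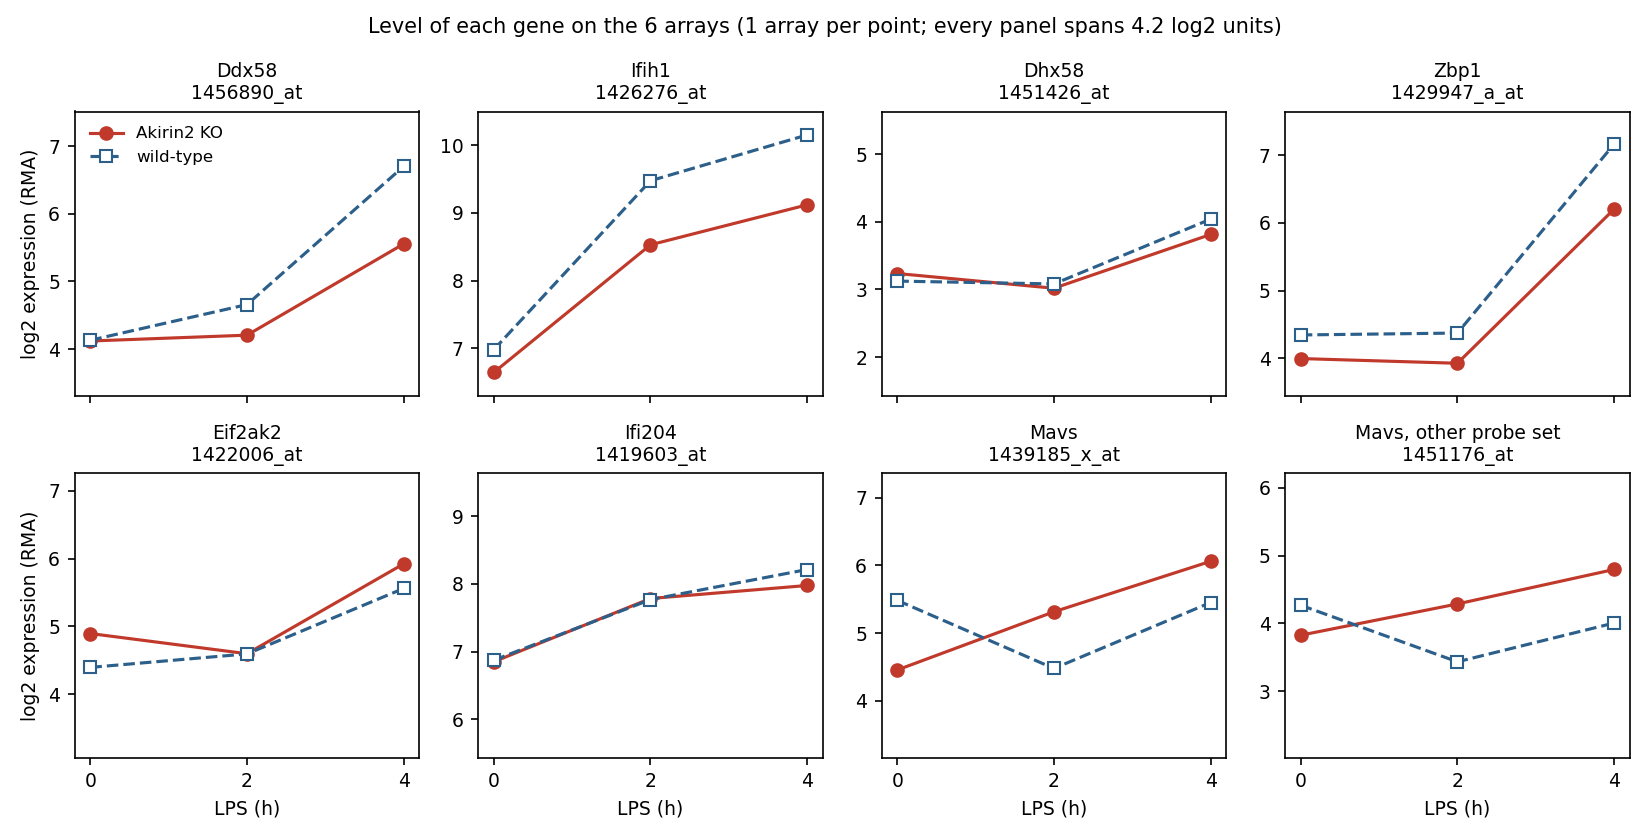
Log2 expression of the 7 measured genes and of the second Mavs probe set at 0, 2 and 4 h of LPS, with 1 array per point, filled circles for Akirin2 KO and open squares for wild-type. Ifih1 and Ifi204 were higher by 2 h and Ddx58, Zbp1, Dhx58 and Eif2ak2 at 4 h, while the Mavs lines cross between 0 and 2 h.

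Ifih1 and Ifi204 were the early genes. Ifih1 read 6.64, 8.53 and 9.12 in KO at 0, 2 and 4 h, against 6.98, 9.47 and 10.15 in wild-type. Most of its increase was present at 2 h in each genotype, and KO lay below wild-type at every time. In limma Ifih1 rose by 2.19 at 2 h (SE 0.19, adjusted p = 0.00037) and by 2.82 at 4 h (SE 0.19, adjusted p = 5.11e-05). Ifi204 read 6.85, 7.79 and 7.98 in KO, against 6.87, 7.77 and 8.21 in wild-type. The genotypes were nearly level at 0 and 2 h, with differences of -0.02 and 0.02. Ifi204 belongs to a family of similar genes, and how far its probe set reads its relatives was not tested. Ifi204 rose by 0.91 at 2 h (SE 0.15, adjusted p = 0.00918) and by 1.23 at 4 h (SE 0.15, adjusted p = 0.00097).

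Ddx58 and Zbp1 were late genes, with little difference at 2 h and a large one at 4 h. Ddx58 read 4.12, 4.21 and 5.55 in KO, against 4.13, 4.66 and 6.70 in wild-type. The genotypes started level on this probe set, and at 4 h KO stood at 2.70-fold over its 0 h array, where wild-type stood at 5.93-fold. On the second Ddx58 probe set KO already differed from wild-type by -0.43 at 0 h, and the 4 h folds were 4.47 in KO and 6.00 in wild-type. In limma Ddx58 rose by 2.00 at 4 h (SE 0.24, adjusted p = 0.000938) and differed by 0.31 at 2 h (adjusted p = 0.553). Zbp1 read 4.00, 3.93 and 6.20 in KO, against 4.35, 4.37 and 7.16 in wild-type. Neither genotype had moved at 2 h by more than 0.07, and both were higher at 4 h, KO by 4.62-fold and wild-type by 7.05-fold. Zbp1 rose by 2.51 at 4 h (SE 0.18, adjusted p = 6.68e-05). Its other probe set was not called at 4 h when every probe set was fitted on its own (0.39, adjusted p = 0.194). With both averaged Zbp1 rose by 1.45 (adjusted p = 0.000803).

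Eif2ak2 and Dhx58 had smaller late increases. Eif2ak2 read 4.89, 4.60 and 5.92 in KO, against 4.39, 4.59 and 5.56 in wild-type. Each genotype was highest at 4 h, and KO was the higher of the genotypes at 0 and 4 h. Eif2ak2 rose by 1.10 at 4 h (SE 0.17, adjusted p = 0.00305), and its other probe sets gave 1.04 each when every probe set was fitted on its own (adjusted p = 0.0106 and 0.00359). Dhx58 read 3.24, 3.02 and 3.81 in KO, against 3.12, 3.08 and 4.04 in wild-type. At 2 h it lay below the array median of 3.18 in both genotypes, so its early levels are near background. Dhx58 rose by 0.75 at 4 h (SE 0.16, adjusted p = 0.0134), and by 0.26 with its 3 probe sets averaged (adjusted p = 0.282). Its other 2 probe sets did not reach the filter on any array.

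**Figure D3:**
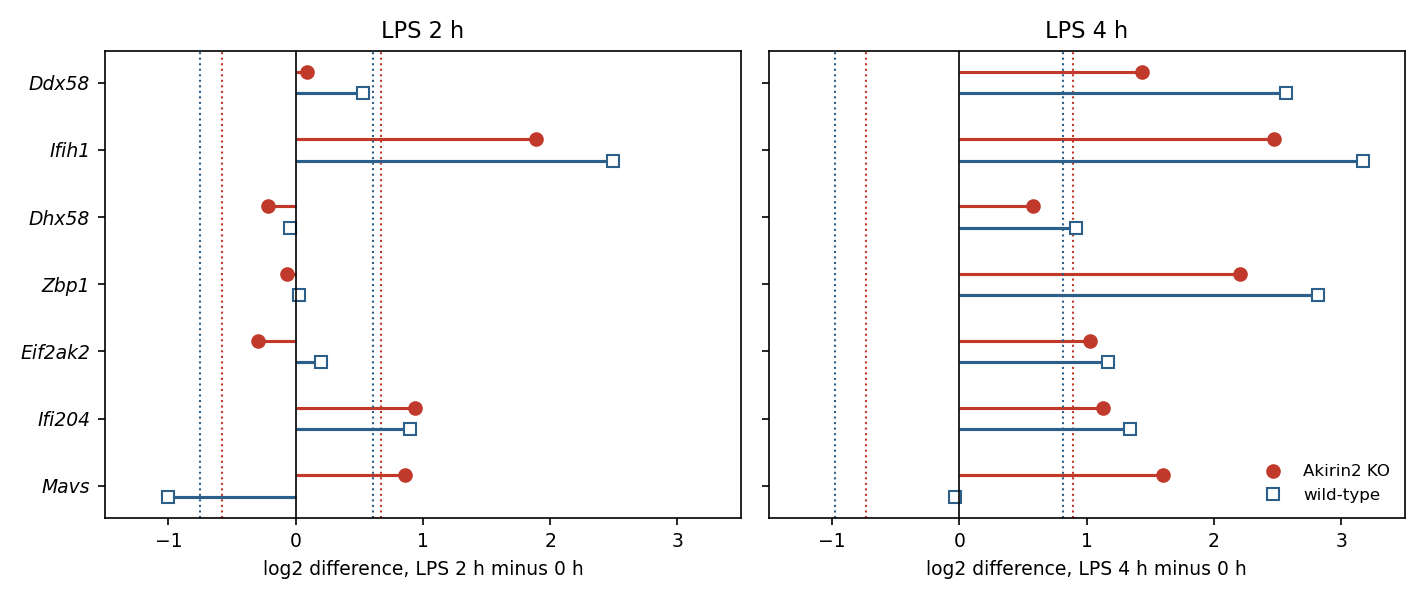
Log2 difference of each gene from the 0 h array of its own genotype at 2 h (left) and 4 h (right), filled circles for Akirin2 KO and open squares for wild-type. Dotted lines mark the 5th and 95th percentiles of all 13587 genes in the same colours; at 4 h Mavs in wild-type is the only point near 0.

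By the 2-fold rule the genotypes gave like counts. At 2 h 1 of 7 genes was higher in KO, where 2.44% of all genes were, and 1 of 7 in wild-type, where 2.26% were: Ifih1 in each. At 4 h 6 of 7 were higher in KO (4.07% of all genes) and 5 of 7 in wild-type (3.72%), and none was lower in KO (2.47%) or wild-type (4.75%). The genes of the wild-type count were Ddx58, Ifih1, Zbp1, Ifi204 and Eif2ak2, and in KO Mavs joined them. Eif2ak2 in KO was near the rule at 1.03, and below it with arrays centred (0.93) or quantile-normalized again (0.91). Its other probe sets gave 0.60 and 0.85 in KO, against 1.48 and 1.24 in wild-type. Mavs was also the 1 gene at least 2-fold lower in wild-type at 2 h (2.19% of all genes), and none was in KO (0.905%). It was not so with arrays centred on their median or quantile-normalized again, where its difference was -0.86 and -0.92.

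Between 2 and 4 h Zbp1 (2.28), Ddx58 (1.35) and Eif2ak2 (1.33) were at least 2-fold higher at the later time in KO (1.01% of all genes). In wild-type Zbp1 (2.79) and Ddx58 (2.04) were (1.35% of all genes), and no gene of the set was lower (0.508% of all genes in KO and 1.07% in wild-type). Eif2ak2 stood at 0.97 in wild-type. Its other probe sets went the other way, with 0.62 and 0.81 in KO against 1.22 and 1.28 in wild-type. The step of Ifih1 over the same interval was 0.59 in KO and 0.68 in wild-type, and that of Ifi204 was 0.19 in KO and 0.44 in wild-type.

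The next comparison asks whether loss of Akirin2 shifted the sensors. In the additive limma fit 0 of the 7 genes passed in either direction, where 0.891% of all genes were higher and 1.06% lower in KO. At an unadjusted p under 0.05 there were 3, Ifih1, Zbp1 and Ddx58, all lower in KO, and 2091 genes in all. These 3 were also the ones below wild-type at each of the 3 times, as were 20.4% of all genes. For Ddx58 the 0 h difference of -0.01 turned to 0.15 with arrays centred and 0.05 with quantile normalization again.

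Ifih1 came nearest to the threshold. In KO it stood at 79.1%, 51.9% and 48.9% of wild-type over the 3 times, and the fitted difference was -0.77 (SE 0.16, 95% interval -1.14 to -0.41, adjusted p = 0.0542). Zbp1 in KO stood at 78.5%, 73.4% and 51.4% of wild-type, with a fitted difference of -0.59 (SE 0.15, 95% interval -0.93 to -0.24, adjusted p = 0.104). Ddx58 in KO stood at 99.2%, 73.1% and 45.2% of wild-type, with -0.54 (SE 0.20, 95% interval -0.99 to -0.08, adjusted p = 0.249). For all 3 the gap was widest at 4 h. With the 0 h arrays left out, the differences were -0.99 for Ifih1 (adjusted p = 0.00205), -0.70 for Zbp1 (adjusted p = 0.0254) and -0.80 for Ddx58 (adjusted p = 0.0198), where 2.16% of all genes were called lower. In limma with trend and robust settings Ifih1 (adjusted p = 0.000238) and Zbp1 (adjusted p = 0.0488) passed as lower, where 3.42% of all genes did.

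At single times the 2-fold rule counted few sensors. At 4 h Ddx58 (-1.15) and Ifih1 (-1.03) were at least 2-fold lower in KO, as were 0.618% of all genes, Zbp1 stood at -0.96 and none was higher (0.832% of all genes). At 2 h no sensor was past the rule (0.464% of all genes lower and 0.486% higher), with Ifih1 at -0.95. At 0 h 1 of 7 was lower, Mavs at -1.03 (1.15% of all genes), and none was higher (0.78%). The Mavs value was -0.87 with arrays centred and -0.92 with quantile normalization again. The median of the 7 genes was -0.02, -0.06 and -0.24 at 0, 2 and 4 h, beside -0.07, 0.0043 and 0.03 over all genes.

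No difference between genotypes was called for the other measured sensors. Ifi204 had a fitted difference of -0.08 (95% interval -0.36 to 0.20, adjusted p = 0.809) and Dhx58 one of -0.06 (95% interval -0.35 to 0.23, adjusted p = 0.868). These intervals do not show equal levels. For Eif2ak2 the probe sets disagreed. The one with the highest mean gave 0.29 (95% interval -0.03 to 0.61, adjusted p = 0.369). The other 2 gave -0.22 and -0.40, and at 4 h their differences were -0.71 and -0.69 beside 0.36 for the first.

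**Figure D4:**
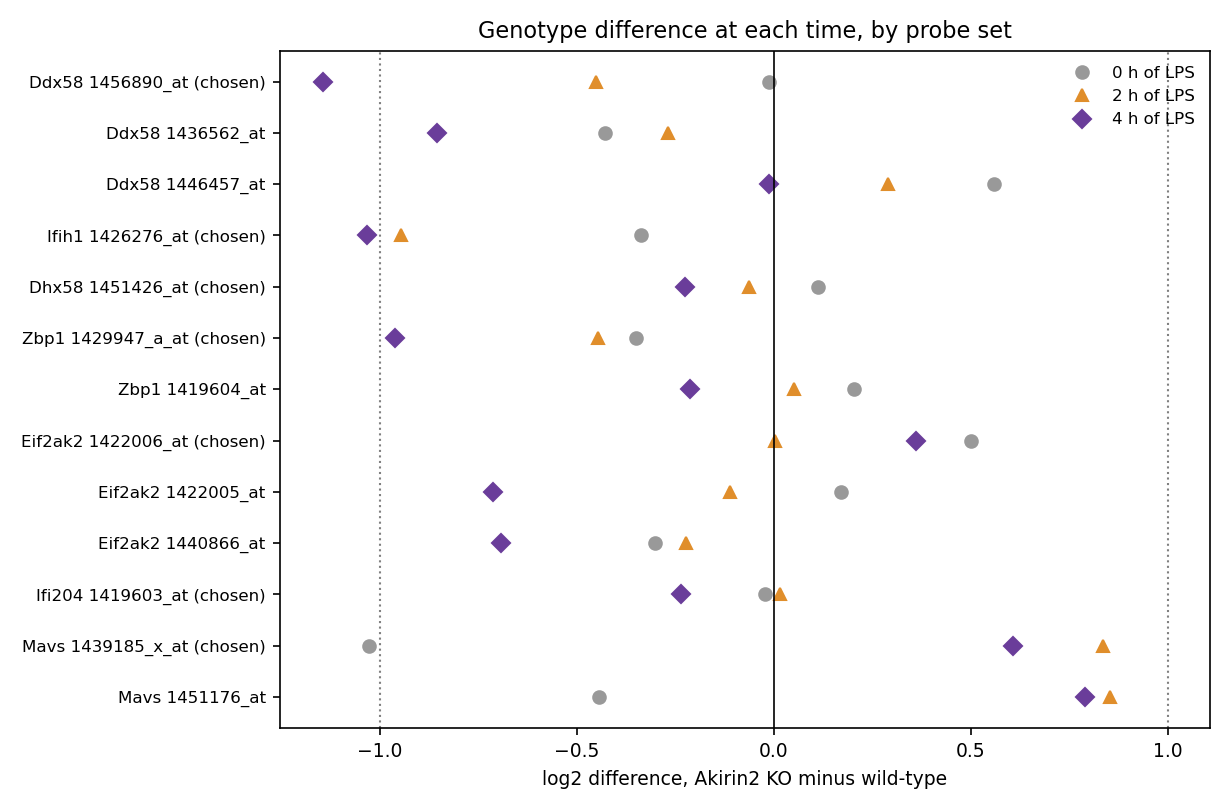
Log2 difference of Akirin2 KO minus wild-type at 0, 2 and 4 h of LPS for the 13 probe sets of these genes that reached the filter, with dotted lines at 2-fold. Both Mavs probe sets change sign between 0 and 2 h, Ifih1 and the chosen probe sets of Ddx58 and Zbp1 lie below 0 at every time (Ddx58 at 0 h only as deposited, since centring gives 0.15), and the 3 Eif2ak2 probe sets lie on different sides at 4 h.

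Further probe sets of Ddx58 and Zbp1 were set beside the chosen ones. The second Ddx58 probe set read 3.61, 4.00 and 5.77 in KO, against 4.04, 4.27 and 6.62 in wild-type. It too was lower in KO at every time, by -0.43, -0.27 and -0.85, and its correlation with the chosen one over the 6 arrays was 0.983. The third read between 2.82 and 3.38 and followed neither (0.052 with the chosen one). The other Zbp1 probe set read 2.88 to 3.48, near the array medians, and differed between genotypes by 0.20, 0.05 and -0.21 at 0, 2 and 4 h.

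Whether LPS moved the genes differently in the genotypes was tested with a term for that difference. In this limma fit, with genotype by stimulation, Mavs was the 1 gene of the 7 that passed, and also the 1 gene of 13587 called as more induced in KO (0.00736%). No sensor was called as less induced (0.0221% of all genes). Mavs read 4.46, 5.31 and 6.06 in KO at 0, 2 and 4 h, against 5.48, 4.48 and 5.45 in wild-type. It was lowest at 0 h in KO and lowest at 2 h in wild-type, and the order of the genotypes turned between 0 and 2 h. The KO response exceeded the wild-type response by 1.86 at 2 h and 1.64 at 4 h, differences that share the 0 h arrays. The fitted term was 1.75 (SE 0.25, 95% interval 1.20 to 2.30, adjusted p = 0.0461). This fit leaves 1 residual degree of freedom beside a prior of 11.5, so the p-value rests mostly on variance pooled over all genes. How alike the Mavs differences at 2 and 4 h were enters it only in small part. The spread between animals does not enter it.

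The second Mavs probe set gave the same order of levels within each genotype. Its values were 3.82, 4.29 and 4.80 in KO, against 4.27, 3.43 and 4.00 in wild-type. The response difference was 1.30 at 2 h and 1.23 at 4 h, and the correlation with the chosen probe set was 0.913 over the 6 arrays. The chosen one ends in _x_at, the platform's mark for probes that may cross-hybridise. With such probe sets left out the Mavs term was 1.26 (SE 0.25, adjusted p = 0.141), and with both averaged it was 1.51 (adjusted p = 0.0539).

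The Mavs call depended on the settings. Its adjusted p ranged from 7.48e-06 with trend and robust to 0.141 over the alternatives. It was above 0.05 in 6 of 8 of them, while the term stayed between 1.26 and 1.75. With trend and robust 1.14% of all genes were called more induced in KO, and with quantile normalization again 0.14% were. The unstimulated KO array, which enters the term, also carried hybridisation spikes (bioB and bioC) at 10.89, against 10.21 on the unstimulated wild-type array and 10.12 to 10.47 on the other 4. The part of this in the Mavs result was not tested. With the 0 h arrays left out, Mavs was higher in KO by 0.72 (SE 0.15, adjusted p = 0.0145, where 2.72% of all genes were called higher). Over all 3 times its genotype difference was 0.14 (adjusted p = 0.873).

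For the sensors the term was below 0 in all 6 genes, with none called. The median term over all genes was 0.10 as deposited. The share of all genes below 0 was not counted, so the shared sign is not read as a result. With arrays centred the 6 terms were also below 0. The median response difference over all genes was then itself below 0, at -0.07 at 2 h and -0.15 at 4 h. At an unadjusted p under 0.05 there were Ddx58 and Ifih1, among 1739 genes in all with Mavs. The term was -0.79 for Ddx58 (95% interval -1.44 to -0.14, adjusted p = 0.3) and -0.65 for Ifih1 (95% interval -1.19 to -0.11, adjusted p = 0.3). It was between -0.35 and -0.09 for Zbp1, Eif2ak2, Dhx58 and Ifi204, each with a 95% interval that includes 0. With trend and robust Ifih1 passed (adjusted p = 0.0156, where 0.743% of all genes were called less induced). By the 2-fold rule Ddx58 was less induced in KO at 4 h, by -1.13 (1.1% of all genes), on its chosen probe set only. The second Ddx58 probe set had a response difference of 0.16 at 2 h and -0.43 at 4 h, with a term of -0.13 (SE 0.29, adjusted p = 0.899). By the same rule Mavs was more induced at 2 h (1.07%) and at 4 h (2.05%). At 2 h none was less induced (0.67%). Centring the arrays moved the median response difference over all genes at 4 h from 0.12 to -0.15. The difference at 4 h was then -1.40 for Ddx58, -0.96 for Ifih1 and 1.37 for Mavs.

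How the genes moved together was described by correlations over the 6 arrays, which share normalization and conditions. Ddx58, Zbp1 and Dhx58 were alike (0.939 to 0.978), as were Ifih1 and Ifi204 (0.966). Mavs correlated with the 6 sensors by 0.273 to 0.583. Among 2233 other genes that spanned at least 1 log2 unit, the 5 most like the mean of the 6 sensors were Ccl22 (0.997), Lcn2 (0.996), Rnf114 (0.996), Fst (0.994) and Gbp7 (0.994). Those most like Mavs were Tspyl3 (0.949), Bccip (0.941), Hs1bp3 (0.904), Arap3 (0.896) and Eif4e3 (0.894). Tspyl3 read 4.09, 5.01 and 5.22 in KO, against 4.69, 4.09 and 4.83 in wild-type, lowest at 0 h in KO and at 2 h in wild-type. It was picked by its likeness to Mavs on these 6 arrays, so the shared order is no separate evidence.

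Other genes of nucleic acid sensing were counted with the same fit. Of 10 other DNA sensors measured, 2 rose at 4 h, where 7.76% of all genes did: Cgas, the enzyme that makes the STING ligand, by 1.71 (adjusted p = 0.000134), and the PYHIN gene Mndal by 1.42 (adjusted p = 0.000816). None of the 10 was called between genotypes, and Cgas differed by -0.12. Sting1 itself was not called at 4 h, at -0.77 (adjusted p = 0.121), and read 4.33 on the wild-type 4 h array against 5.66 to 5.93 on the other 5.

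Of 16 other RNA sensors and co-sensors, 8 rose at 4 h, where 7.76% of all genes did. Of the 16, 1 was called lower in KO than in wild-type, as were 1.06% of all genes. The largest increases were those of Ifit1, which binds RNA lacking a host cap (5.08, adjusted p = 4.61e-06), the inflammasome gene Nlrp3 (2.74, adjusted p = 0.000113), Ifit3 (2.39, adjusted p = 0.000931) and the oligoadenylate synthetase Oas3 (1.85, adjusted p = 0.00193). Ifit1 was the gene called lower in KO than in wild-type, at -1.77 (adjusted p = 0.00354). That difference was present before LPS, at -2.23, -1.72 and -1.35 at 0, 2 and 4 h. The median of this list at 4 h was 0.72, beside -0.03 over all genes.

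Of 13 regulators of RIG-I and MDA5 none rose at 4 h (7.76% of all genes did) and 1 fell, near the 7.61% of all genes that did. It was Trim65, a ubiquitin ligase for MDA5, which fell by 1.27 (adjusted p = 0.0252). Its difference at 4 h was -1.94 in wild-type and -0.60 in KO. The genotype by stimulation term of Trim65 was 1.35 and was not called (limma, adjusted p = 0.0671). Of 26 genes of the MAVS complex and its chain, 6 rose at 4 h, where 7.76% of all genes did. Among them were Traf5 (1.91, adjusted p = 0.000401), the adaptor Tank (1.79, adjusted p = 0.000141), the kinase gene Ikbke (1.62, adjusted p = 0.000222) and the interferon regulator Irf7 (1.46, adjusted p = 0.000874). Irf7 was also the 1 of the 26 that was called lower in KO, at -0.77 (adjusted p = 0.0373), where 1.06% of all genes were. The list median was 0.20 at 4 h and 0.01 between genotypes.

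Partners of ZBP1 and PKR, nucleases and the interferon receptor chain completed the set. At 4 h, where 7.76% of all genes rose, 2 of 10 partners did, the necroptosis effector Mlkl (1.51, adjusted p = 0.00116) and the phosphatase subunit Ppp1r15a, which reverses eIF2 phosphorylation (1.05, adjusted p = 0.00206). Of 10 enzymes that remove or mark self nucleic acid 2 rose (7.76% of all genes), Rnaset2a (1.33, adjusted p = 0.00303) and the RNA editor Adar (1.09, adjusted p = 0.00301). Of 7 genes of interferon and its receptor chain 4 rose (7.76% of all genes): Irf9 (1.45, adjusted p = 0.00204), Ifnar1 (1.05, adjusted p = 0.00473), Stat2 (0.97, adjusted p = 0.00777) and Ifnar2 (0.59, adjusted p = 0.0271). Ifnb1 read 2.88 to 3.24, at or near the array medians on all 6 arrays. None of these 3 lists had a gene called between genotypes, where 0.891% and 1.06% of all genes were, and none of the 7 lists had a gene called in the genotype by stimulation test.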

How the data were processed

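The authors deposited 1 log2 value for each probe set and array, which per the submitters' processing notes came from RMA. Its version and the genome build are not given in the sources used. Symbols came from the platform annotation (34958 with 1 symbol, 932 with several, 9211 unnamed here), each gene took its probe set with the highest mean, and a filter kept 13587 genes that reached the median of an array (the 50th percentile) on at least 1 array. limma 3.58.1 in R 4.3.3 (lmFit, eBayes, Benjamini-Hochberg at 0.05) was fitted with LPS time and genotype (2 residual degrees of freedom, prior 6.35), and again with genotype by stimulation (1 residual degree of freedom, prior 11.5). The fits were also run on simulated data with noise drawn from the additive fit's own variances. That run shares the assumptions of the fits and cannot stand in for replicate arrays. Precision is limited by the number of arrays.

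The genes, the lists of related genes and the tests were chosen with earlier results of these data known. Named genes are the 8 genes, Akirin2, the 5 genes most like each profile, and in each list those called between genotypes and up to 4 with the largest called difference at 4 h; Sting1 and Ifnb1 were added after their values were seen. Promoters came from RefSeq windows, read with Python 3.11.15. Alternatives were no filter, a filter at the 75th percentile, averaged probe sets, no _s_at or _x_at probe sets, quantile normalization again, centred arrays, trend and robust, leaving out a time, a 1.5-fold rule and, chosen after seeing the data, a fit of every probe set.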

Additional observations from a re-analysis of the deposited data

Results flagged for a closer look

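Mavs had an LPS response that differed between the genotypes by the test of the difference itself, with a genotype by stimulation term of 1.75 (limma, adjusted p = 0.0461). That p-value rests mostly on variance pooled over all genes, since the fit leaves 1 residual degree of freedom beside a prior of 11.5. It does not measure the spread between animals, and the differences at 2 and 4 h share the 0 h arrays. The KO arrays were higher than their 0 h array at 2 and 4 h, while wild-type was lower at 2 h and level at 4 h. The call was lost in 6 of 8 alternatives (adjusted p = 0.0539 to 0.141), and the unstimulated KO array, which enters the term, had spikes at 10.89, against 10.12 to 10.47 on the other 5 arrays. Their part in it was not tested. Each condition had 1 array, so no gene could be tested for an array far from others of its group.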

How the results depend on the processing

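No paired analysis was possible because each condition has 1 array. The 6 sensors other than Mavs kept every LPS call at 2 and 4 h under all alternatives that measured them but 1: Dhx58 at 4 h was not called with probe sets averaged (0.26, adjusted p = 0.282). The Mavs genotype by stimulation term was not called, so that 0 genes of the set were more induced in KO, with no filter (adjusted p = 0.0854), the filter at the 75th percentile (0.109, with Dhx58 removed), probe sets averaged (1.51, 0.0539), no _s_at or _x_at probe sets (1.26, 0.141), arrays centred (1.54, 0.124) or every probe set fitted (0.0594). Under these settings no gene of all those tested was called more induced in KO. The Mavs term was called with quantile normalization again (1.61, 0.0197), where 0.14% of all genes were called more induced. It was also called with trend and robust (7.48e-06), where 1.14% of all genes were. With trend and robust 2 genes were lower in KO (3.42% of all genes) and 1 was less induced (0.743%). With no _s_at or _x_at probe sets 1 gene, Ifih1, was lower in KO (adjusted p = 0.0493), as were 1.1% of all genes. Without the 0 h arrays 3 genes were lower (2.16% of all genes) and 1, Mavs, higher (2.72%).

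Differences whose sign turned were small or those of Mavs. At 2 h of LPS Eif2ak2 stood at 0.0225 with probe sets averaged and at 0.0182 with arrays centred, and Zbp1 at 0.0468 with arrays centred and 0.0361 with quantile normalization again. Between genotypes Eif2ak2 stood at -0.11 with probe sets averaged, Dhx58 at 0.0243 without the 4 h arrays, and Mavs at -0.21 without the 2 h arrays and -0.10 without the 4 h arrays. The cause of these changes was not tested.

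By the 2-fold rule, 0 genes were lower in wild-type at 2 h and 0 lower in KO at 0 h with probe sets averaged, no _s_at or _x_at probe sets, quantile normalization again or arrays centred. Under each of these alternatives 5 genes were higher at 4 h in KO. With probe sets averaged 1 gene was lower in KO at 4 h and 0 were less induced at 4 h; with arrays centred 2 were higher in wild-type at 2 h. A 1.5-fold rule gave 3 genes higher in KO and 2 in wild-type at 2 h, 1 higher and 1 lower in KO than in wild-type at 2 h, 1 higher at 4 h, and 1 less induced at 2 h and 3 at 4 h. In all, 232 of 255 values of single genes kept their direction and their side of the threshold. Of 200 counts 171 were within 1.5 times of the reported one, and 161 of these were equal to it.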
